A study of Homo sapiens with 8 samples.

Results

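The genes described here are 36 genes of antioxidant defence, NADPH supply and the NRF2 pathway, taken by symbol from the 19479 genes that both deposited tables list. All 36 were found in both tables, and all 36 reached 1 RPKM in at least 2 libraries, the filter used for testing. RPKM is the number of reads of a gene scaled to its length in kilobases and to the total reads of the library. The data are 8 RNA-seq libraries of AC16, an established human line made by fusing ventricular cardiomyocytes with transformed fibroblasts, in 4 groups of 2. Cells of the 25 to 50 mM group were kept at 25 mM D-glucose and then given 25 mM more for 24 h, against the 25 mM group, which stayed at 25 mM. Cells of the 5 to 50 mM group were kept at 5 mM and then given 45 mM more for 24 h, against the 5 mM group, which stayed at 5 mM. Every group was grown in DMEM with fetal bovine serum, penicillin and streptomycin, had spent 3 passages or more at its starting level, and was replated 24 h before the rise. The 2 libraries of a group are described as technical replicates, so the p-values given below measure the spread between libraries and may not cover the spread between cultures. No library of another osmolyte is among the samples used here, and the amount of glucose added differed between the sets, so that glucose and osmotic load cannot be told apart. Likewise, the long-term glucose level cannot be told apart from any other difference between the cultures kept at 25 mM and at 5 mM.

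NRF2, the product of NFE2L2, is a transcription factor that is bound by KEAP1 and passed to the proteasome in unstressed cells. Oxidants and electrophiles modify cysteines of KEAP1, NRF2 accumulates, pairs with a small MAF protein such as MAFG, and activates genes that carry antioxidant response elements. Those genes serve glutathione synthesis, the thioredoxin and peroxiredoxin system, quinone and heme breakdown, iron storage in ferritin, and the enzymes that reduce NADP to NADPH, which both glutathione reductase and thioredoxin reductase consume.

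Library totals ran from 21538898 to 27372851 reads, so that 3 reads in a 1 kb gene correspond to 0.11 to 0.139 RPKM. Of 14 cardiomyocyte markers, 3 were at 0 in all 8 libraries and 10 were under 1 RPKM in all 8. Their summed level was 209 to 219 RPKM at 25 to 50 mM, 203 to 205 at 25 mM, 206 to 210.3 at 5 to 50 mM and 205 to 221 at 5 mM. All 10 fibroblast markers exceeded 1 RPKM, with sums of 6407 to 7000.2 RPKM at 25 to 50 mM, 6448 to 6803 at 25 mM, 6899.96 to 7176 at 5 to 50 mM and 6400.2 to 7053 at 5 mM. ATP2A2 made up 95.2% to 98.8% of the cardiomyocyte sum, and VIM and COL1A1 together 75.5% to 82.2% of the fibroblast sum, so the sums mainly show these genes. Single markers moved between the cultures kept at 25 mM and at 5 mM. Of 4 cardiomyocyte markers tested, 0 were higher and 2 lower at 25 mM against 5 mM, GATA4 by -1.52 and NPPA by -0.60 on the log2 scale, while 6 of 10 fibroblast markers were higher and 3 lower. At 25 to 50 mM against 5 to 50 mM, 3 of 4 cardiomyocyte markers were lower, and 4 of 10 fibroblast markers were higher and 3 lower. Among all genes tested, 17% were higher and 22.1% lower in the first comparison, and 18.1% and 23.3% in the second. The part of these markers in the results below was not tested. Most defining markers of the labelled cell type were at or near 0. The libraries of 2 groups stood apart from each other by GC content. Across 11941 genes the difference between the 5 mM libraries, replicate 3 minus replicate 1, correlated with transcript GC content at r = 0.572, and that between the 25 to 50 mM libraries, replicate 3 minus replicate 2, at r = -0.47; the values were 0.049 at 25 mM and -0.16 at 5 to 50 mM.

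The same split was seen among the antioxidant genes. A set of 8, HMOX1, PGLS, OSGIN1, PRDX5, GPX1, GPX4, SOD3 and KEAP1, have a transcript GC content of at least 60%. In the 5 mM group their median difference between replicate 3 and replicate 1 was 0.36 on the log2(RPKM + 1) scale, against 0.032 for the other genes. In the 25 to 50 mM group it was -0.20 between replicate 3 and replicate 2, against 0.041 for the other genes. SOD3 differed most in both groups. Results for these genes are therefore given with the library values, and the part of GC content in them was not tested beyond the corrected values below.

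**Figure D1:**
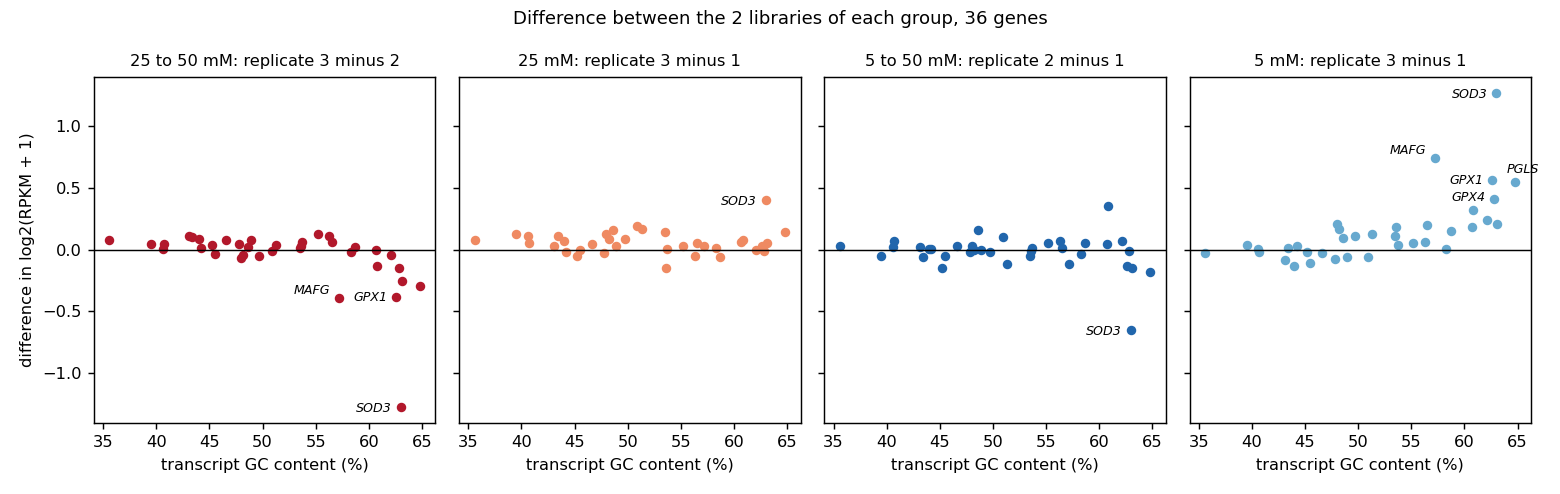
Difference in log2(RPKM + 1) between the 2 libraries of each group (vertical axis) against transcript GC content in percent (horizontal axis), 1 point for each of the 36 genes and 1 panel for each group; genes that differ by more than 0.36 are named. The 5 mM panel slopes up (r = 0.647 across the 36 genes) and the 25 to 50 mM panel slopes down (r = -0.50), with SOD3 at the far end of both.

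Levels spanned a wide range. Averaged over the 8 libraries, 18 of the 36 genes were at 100 RPKM or more and 4 were under 20 RPKM. The ferritin genes FTL and FTH1, the thioredoxin gene TXN and the peroxiredoxin gene PRDX1 had the highest levels per length, and OSGIN1, MAFG, SOD3 and GCLC the lowest. The reads behind a gene in 1 library ran from 75 for SOD3 to 99426 for FTL. Both tables scale each library by its own total, and levels are set side by side across the tables on that footing.

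In all, 5 comparisons were made with limma on log2(RPKM + 1), and a gene passed a test where its adjusted p over all genes tested was under 0.05. The study set 50 mM glucose against each starting level. From 25 mM, none of the 36 genes passed, where 0.00876% of all genes tested did; at an unadjusted p under 0.05 there were 2 above and 2 below, where 2.8% and 6.45% of all genes were. From 5 mM, 1 of the 36 passed, the malic enzyme gene ME1, where 0.329% of all genes did (0.312% higher, 0.0169% lower). The largest contrast in these genes lay between the cultures kept at different glucose. At 25 mM against 5 mM, 8 of the 36 were higher and 13 lower, that is 21 of 36 (58.3%), where 39.1% of all genes passed (17% higher, 22.1% lower). At 25 to 50 mM against 5 to 50 mM, called the comparison at 50 mM from here on, 7 were higher and 12 lower, 19 of 36 (52.8%), where 41.4% of all genes passed (18.1% higher, 23.3% lower). Of the 36 genes, 32 averaged 20 RPKM or more, and 20 and 18 of these passed in the 2 comparisons. Among all genes at that level 42% and 44.4% passed. Whether the set differs from other genes was not tested. The median log2 change of the 36 genes was -0.087 in the comparison of 25 mM with 5 mM, where that of all genes was -0.0040, and -0.079 at 50 mM, where that of all genes was -0.023. The sign of these medians depended on the scaling, as given below. The genes are bulk measurements, so fewer cells of a kind and less RNA per cell cannot be told apart in any of these values.

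**Figure D2:**
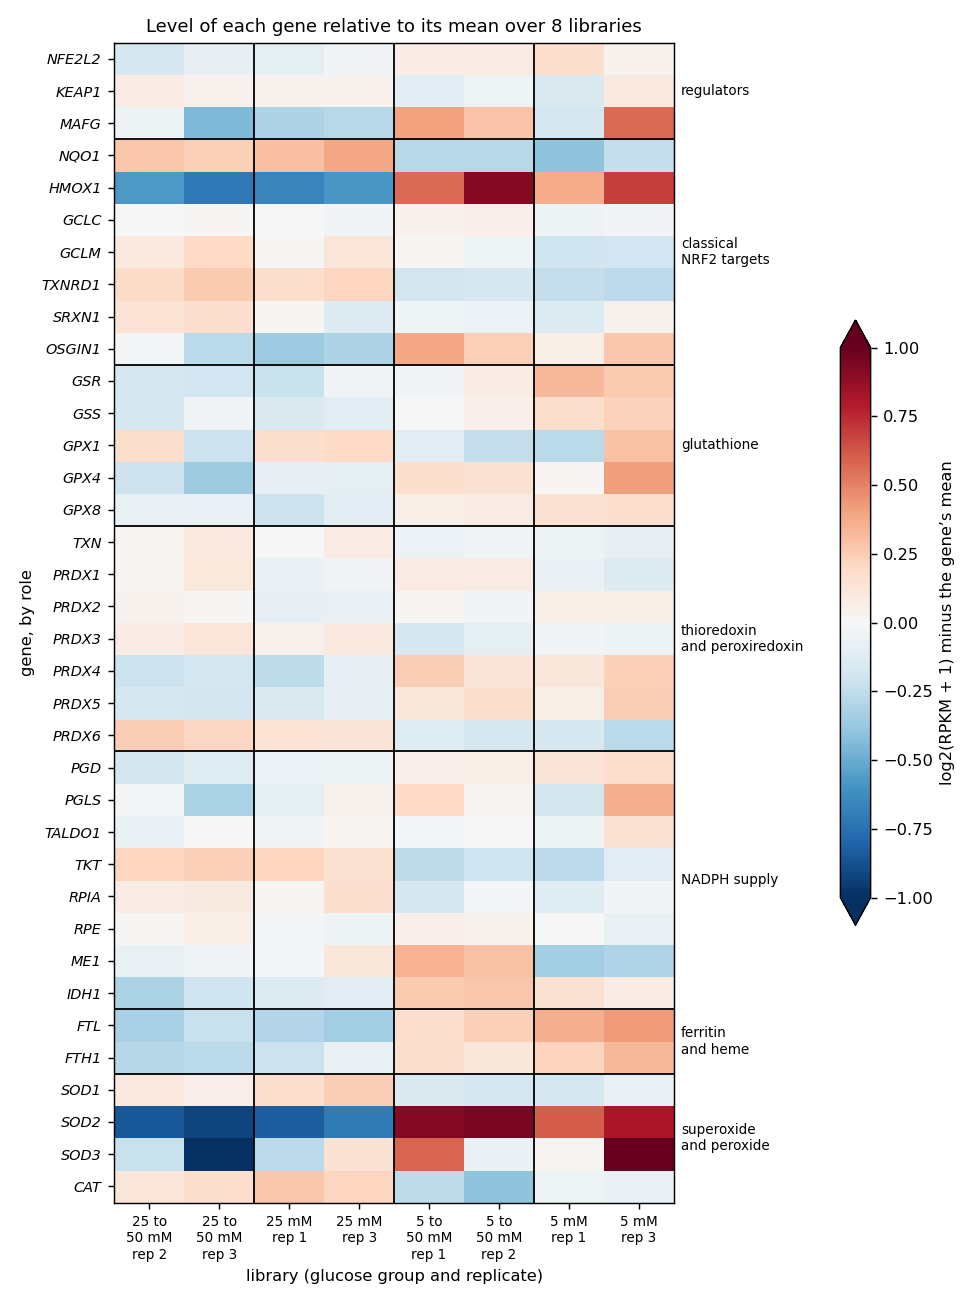
Level of each of the 36 genes (rows, by role) in each of the 8 libraries (columns, by glucose group and replicate), as log2(RPKM + 1) minus the gene's mean over the 8 libraries; colours are clipped at 1 and -1. The left 4 columns (kept at 25 mM) and the right 4 columns (kept at 5 mM) separate for NQO1, TXNRD1, TKT and PRDX6 on the high side at 25 mM, and for SOD2, HMOX1, FTL and FTH1 on the high side at 5 mM.

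Among the 3 regulators NFE2L2 passed in 1 comparison, and KEAP1 and MAFG in none. NFE2L2, which encodes NRF2 (chr2:177230303-177264727), had 74.3 and 78.9 RPKM at 25 to 50 mM, 78.1 and 82.0 at 25 mM, 87.7 and 88.1 at 5 to 50 mM, and 93.9 and 85.5 at 5 mM. All 4 libraries kept at 25 mM lay below the 4 kept at 5 mM. The log2 change of NFE2L2 was -0.16 at 25 mM against 5 mM (SE 0.061, adjusted p = 0.0696). NFE2L2 was lower at 25 to 50 mM than at 5 to 50 mM by a log2 change of -0.20 (adjusted p = 0.0335). That call was lost without any 1 of the 4 libraries compared, or without either 25 mM library (adjusted p from 0.0510 to 0.160). It was also lost after median centring (-0.14, adjusted p = 0.143), after quantile normalization (-0.17, 0.0668) and with gene length fitted out (-0.091, 0.312). KEAP1, the NRF2 repressor, had 49.5 and 48.1 RPKM at 25 to 50 mM, 47.9 and 47.9 at 25 mM, 43.0 and 45.1 at 5 to 50 mM, and 42.1 and 49.9 at 5 mM, and passed no test. MAFG, a small MAF partner of NRF2, had 11.1 and 8.27 RPKM at 25 to 50 mM, 9.20 and 9.41 at 25 mM, 15.7 and 14.3 at 5 to 50 mM, and 10.2 and 17.7 at 5 mM. The 5 mM libraries of MAFG lay on either side of both 5 to 50 mM libraries. Its log2 change was -0.49 at 25 mM against 5 mM (SE 0.23, adjusted p = 0.129) and -0.59 at 50 mM (SE 0.23, adjusted p = 0.0712). The change of MAFG at 25 mM against 5 mM was -0.86 without 5 mM replicate 1 (adjusted p = 0.0048) and -0.12 without 5 mM replicate 3 (adjusted p = 0.590). The change at 50 mM passed when either 5 mM library was left out of the shared spread (adjusted p = 0.00776 and 0.00764).

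Of 7 classical NRF2 targets, 3 were higher and 2 lower at 25 mM against 5 mM, and 2 higher and 2 lower at 25 to 50 mM against 5 to 50 mM. Counts of a role group, here and below, stand beside 17% higher and 22.1% lower among all genes at 25 mM against 5 mM. At 50 mM those shares were 18.1% and 23.3%. No role group was tested against them. NQO1, the NADPH quinone reductase widely used as a readout of NRF2 (chr16:69709401-69726560), had 801 and 777 RPKM at 25 to 50 mM, 812 and 861 at 25 mM, 544 and 543 at 5 to 50 mM, and 498 and 559 at 5 mM. Every library kept at 25 mM was above every library kept at 5 mM. NQO1 was 1.58-fold higher at 25 mM than at 5 mM (log2 change 0.66, SE 0.061, adjusted p = 0.000142). The gene was 1.45-fold higher at 25 to 50 mM than at 5 to 50 mM (log2 change 0.54, SE 0.061, adjusted p = 0.000377). TXNRD1, the cytosolic thioredoxin reductase (chr12:104215779-104350307), had 297 and 313 RPKM at 25 to 50 mM, 295 and 304 at 25 mM, 229.9 and 234 at 5 to 50 mM, and 221 and 217 at 5 mM. The sets did not overlap either. TXNRD1 was higher by 0.45 on the log2 scale at 25 mM against 5 mM (SE 0.044, adjusted p = 0.000194) and by 0.39 at 50 mM (SE 0.044, adjusted p = 0.000355). GCLM, the modifier subunit of glutamate-cysteine ligase (chr1:93885199-93909430), had 69.2 and 74.3 RPKM at 25 to 50 mM, 65.1 and 70.2 at 25 mM, 65.3 and 62.8 at 5 to 50 mM, and 56.1 and 56.4 at 5 mM. Its 5 mM libraries were the lowest of the 8. GCLM was higher at 25 mM than at 5 mM by 0.26 (adjusted p = 0.00999; 0.0720 without 25 mM replicate 3). The change of 0.16 at 50 mM did not pass (adjusted p = 0.0616), but passed in 4 of 20 alternatives. These were median centring (0.22, adjusted p = 0.0196), quantile normalization (0.19, 0.0351), and gene length (0.31, 0.00697) or GC content (0.23, 0.00506) fitted out.

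The other classical targets went against these or passed no test with the deposited RPKM. HMOX1, the inducible heme oxygenase (chr22:35381096-35394207), had 19.7 and 17.8 RPKM at 25 to 50 mM, 18.5 and 19.6 at 25 mM, 44.6 and 57.2 at 5 to 50 mM, and 38.8 and 48.7 at 5 mM. The highest library kept at 25 mM was at 19.7 RPKM and the lowest kept at 5 mM at 38.8 RPKM. HMOX1 was lower at 25 mM than at 5 mM by a log2 change of -1.15, a fold of 0.450 (SE 0.14, adjusted p = 0.000528). It was also lower at 25 to 50 mM than at 5 to 50 mM by -1.39 (SE 0.14, adjusted p = 0.000199). HMOX1 has a GC content of 60.8%, and with GC content fitted out of each library its changes were -1.04 and -1.20. OSGIN1, an oxidative stress induced growth inhibitor, had 5.14 and 4.13 RPKM at 25 to 50 mM, 3.82 and 4.004 at 25 mM, 7.08 and 6.30 at 5 to 50 mM, and 5.47 and 6.47 at 5 mM. All libraries kept at 25 mM were below those kept at 5 mM. OSGIN1 was lower by -0.50 at 25 mM against 5 mM (adjusted p = 0.0127) and by -0.45 at 50 mM (adjusted p = 0.0184). The first call was lost without 25 mM replicate 1 (0.0742), 25 mM replicate 3 (0.0521) or 5 mM replicate 3 (0.0553), each value an adjusted p. Leaving out 25 to 50 mM replicate 3 (0.113) or 5 to 50 mM replicate 1 (0.118) ended the second, as did quantile normalization (-0.26, adjusted p = 0.0714).

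GCLC, the catalytic partner of GCLM, had 19.3 and 19.5 RPKM at 25 to 50 mM, 19.2 and 18.9 at 25 mM, 19.9 and 19.97 at 5 to 50 mM, and 18.5 and 18.9 at 5 mM. Its 8 libraries lay within a narrow band and it passed no test, although its partner subunit differed between the 25 mM and 5 mM groups. SRXN1, the sulfiredoxin that repairs overoxidised peroxiredoxins, had 32.2 and 32.9 RPKM at 25 to 50 mM, 29.5 and 26.6 at 25 mM, 28.3 and 28.1 at 5 to 50 mM, and 26.5 and 30.2 at 5 mM. The 25 to 50 mM libraries were the highest of the 8, but the log2 change of 0.21 against 25 mM had an adjusted p of 0.502. Against 5 to 50 mM the change of SRXN1 was 0.20 (adjusted p = 0.0773), and it passed in 7 of 20 alternatives. Among these were median centring (0.26, adjusted p = 0.0295) and quantile normalization (0.25, 0.0342). Fitting out gene length (0.40, 0.00371) or GC content (0.33, 0.00436) also made it pass.

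Antioxidant response elements in promoters were read as the letters TGACNNNGC on either strand, which appear as GCNNNGTCA when read on the other strand. The window was the 250 bases before each start in the RefSeq promoter set of build GRCh38.p14, in which 29 of the 36 genes have an entry. The motif was present in 7 of these 29 genes (24.1%), against 13.2% of 27305 genes and 10.9% of 35116 windows. It was found in 3 of 6 genes that were higher at 25 mM than at 5 mM (GCLM, TXNRD1 and ME1), in 2 of 9 that were lower (PGD and IDH1) and in 2 of 14 that did not pass (RPE and KEAP1). The windows of NQO1, SOD2 and FTL do not hold these letters. Only these 250 bases were searched, so an element further upstream or within a gene would not be found, and absence here does not mean that a gene lacks one. HMOX1, FTH1, PRDX1, PRDX6, GSR, GSS and SOD1 have no entry. The stretches of the 5 genes that passed are printed in the direction of each gene, 5′ to 3′, with the match in capitals, to show where it stands; a match is a description of letters and not a measured binding site.
GCLM, chr1:93909436-93909484, minus strand: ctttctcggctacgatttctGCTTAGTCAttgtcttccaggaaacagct
TXNRD1, chr12:104215660-104215708, plus strand: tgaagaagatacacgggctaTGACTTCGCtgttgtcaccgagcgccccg
TXNRD1, chr12:104286910-104286958, plus strand: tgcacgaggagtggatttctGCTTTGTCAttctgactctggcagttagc
ME1, chr6:83431160-83431208, minus strand: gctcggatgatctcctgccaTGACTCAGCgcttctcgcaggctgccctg
IDH1, chr2:208255186-208255234, minus strand: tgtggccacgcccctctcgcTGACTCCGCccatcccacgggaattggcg
PGD, chr1:10398843-10398891, plus strand: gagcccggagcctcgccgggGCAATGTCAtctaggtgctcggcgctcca
The match in ME1 overlaps the letters TGANTCA, the core that AP-1 factors recognise, and the other matches shown do not. The 2 entries of TXNRD1 belong to separate transcription starts. GCLM and ME1 share the motif and a higher level at 25 mM against 5 mM, while at 50 mM they part, as described for ME1 under NADPH supply.

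FTL, FTH1 and HMOX1, the iron storage and heme breakdown group, were all lower at 25 mM against 5 mM, where 22.1% of all genes were. All 3 were also lower at 25 to 50 mM against 5 to 50 mM, where 23.3% of all genes were. HMOX2, another heme oxygenase gene from the further list below, was higher in both comparisons. FTL, the ferritin light chain (chr19:48965309-48966879), had 4086 and 4399 RPKM at 25 to 50 mM, 4178 and 4036 at 25 mM, 5763 and 6051 at 5 to 50 mM, and 6586 and 6879 at 5 mM. FTL was lower by a log2 change of -0.71 at 25 mM against 5 mM (SE 0.055, adjusted p = 6.03e-05) and by -0.48 at 50 mM (SE 0.055, adjusted p = 0.000409). After quantile normalization the change of FTL at 50 mM was -0.13 (adjusted p = 0.141), and with gene length fitted out -0.30 (adjusted p = 0.0285). FTH1, the ferritin heavy chain and ferroxidase (chr11:61964285-61967634), had 2330.3 and 2357 RPKM at 25 to 50 mM, 2439 and 2699.6 at 25 mM, 3179 and 3071 at 5 to 50 mM, and 3306 and 3566 at 5 mM. FTH1 was lower by -0.42 (SE 0.062, adjusted p = 0.00139) and by -0.41 (SE 0.062, adjusted p = 0.00139) in the same comparisons. For both ferritin genes the highest library kept at 25 mM was below the lowest kept at 5 mM. FTH1 has 25 named pseudogenes and FTL has 16 in GENCODE 29, and how reads shared with such copies were counted is not given in the sources used here, so the ferritin levels are uncertain to that extent.

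Among 7 glutathione genes, GCLM and GCLC included, 1 was higher and 3 were lower at 25 mM against 5 mM, and 1 was lower at 25 to 50 mM against 5 to 50 mM. GSR, the glutathione reductase (chr8:30678066-30727846), had 30.3 and 30.0 RPKM at 25 to 50 mM, 29.3 and 33.5 at 25 mM, 33.6 and 36.2 at 5 to 50 mM, and 43.4 and 41.5 at 5 mM. The 5 mM libraries were the highest. GSR was lower at 25 mM than at 5 mM by -0.42 (SE 0.075, adjusted p = 0.00344), with -0.21 at 50 mM (adjusted p = 0.0617). GSS, the glutathione synthetase, had 84.4 and 92.2 RPKM at 25 to 50 mM, 85.2 and 87.1 at 25 mM, 93.9 and 97.8 at 5 to 50 mM, and 107 and 110.5 at 5 mM. It showed the same order, lower at 25 mM by -0.33 (adjusted p = 0.0028) and at -0.12 at 50 mM (adjusted p = 0.127). GPX8, a peroxidase of the endoplasmic reticulum, had 116 and 117 RPKM at 25 to 50 mM, 105 and 114 at 25 mM, 127 and 129 at 5 to 50 mM, and 136 and 137 at 5 mM. It was lower by -0.32 at 25 mM (adjusted p = 0.00173), with -0.14 at 50 mM (adjusted p = 0.0542). For these 3 genes the 4 libraries kept at 25 mM lay below the 4 kept at 5 mM, for GSR only just (33.55 against 33.60 RPKM). None of the 3 passed the test at 50 mM on all 8 libraries. Fitted on only the 4 libraries compared, GPX8 (adjusted p = 0.0301) and GSR (0.0346) passed there as lower. In all, GPX8 passed in 5 of 20 alternatives at 50 mM, GSR in 3 and GSS in 0. With gene length fitted out the changes at 50 mM were -0.084 for GSR, 0.010 for GSS and 0.031 for GPX8. With GC content fitted out they were -0.086, 0.020 and -0.084.

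The glutathione peroxidases GPX1 and GPX4 are both rich in GC. GPX4, which reduces lipid hydroperoxides, had 135 and 122 RPKM at 25 to 50 mM, 147 and 147 at 25 mM, 175 and 174 at 5 to 50 mM, and 157 and 209 at 5 mM. Its log2 change at 25 mM against 5 mM was -0.30 (adjusted p = 0.0791). That change was -0.50 without 5 mM replicate 1 and -0.097 without 5 mM replicate 3. GPX4 was lower at 25 to 50 mM than at 5 to 50 mM by -0.44 (adjusted p = 0.0192), a call lost without 25 to 50 mM replicate 3 (0.106), 5 to 50 mM replicate 1 (0.0855) or 5 to 50 mM replicate 2 (0.0796). GPX1, the abundant cytosolic peroxidase, had 286 and 219 RPKM at 25 to 50 mM, 285 and 291 at 25 mM, 236 and 215 at 5 to 50 mM, and 211 and 312 at 5 mM. The lowest and the highest library of GPX1 were both in the 5 mM group, and GPX1 passed no test on all libraries with the deposited RPKM. Its change at 25 mM against 5 mM was 0.17 (adjusted p = 0.51) and ran from -0.11 to 0.45 over the alternatives.

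In the thioredoxin and peroxiredoxin group of 9, 2 were higher and 3 lower at 25 mM against 5 mM, and 3 higher and 2 lower at 50 mM. TXN, thioredoxin itself, had 1389 and 1464 RPKM at 25 to 50 mM, 1367 and 1446 at 25 mM, 1311 and 1339 at 5 to 50 mM, and 1319 and 1292 at 5 mM. The 4 libraries kept at 25 mM were above the 4 kept at 5 mM by a small margin. The log2 changes were 0.11 (adjusted p = 0.111) and 0.11 (adjusted p = 0.113), so that its reductase TXNRD1 passed and TXN did not. PRDX6, a peroxiredoxin that uses glutathione (chr1:173477335-173488815), had 496 and 484 RPKM at 25 to 50 mM, 459 and 457 at 25 mM, 386 and 373 at 5 to 50 mM, and 375 and 347 at 5 mM. PRDX6 was higher by 0.34 at 25 mM against 5 mM (SE 0.049, adjusted p = 0.00116) and by 0.37 at 50 mM (SE 0.049, adjusted p = 0.0008), with no overlap of libraries. PRDX3, the mitochondrial peroxiredoxin, had 272 and 281 RPKM at 25 to 50 mM, 266 and 276 at 25 mM, 231 and 243 at 5 to 50 mM, and 253 and 249 at 5 mM. It was higher at 25 to 50 mM than at 5 to 50 mM by 0.22 (adjusted p = 0.00614; 0.0606 without 5 to 50 mM replicate 1), against 0.11 at 25 mM and 5 mM (adjusted p = 0.0914).

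PRDX4 and PRDX5 ran the opposite way in both comparisons, and PRDX2 only at 25 mM against 5 mM. PRDX4, the peroxiredoxin of the secretory pathway, had 106 and 109 RPKM at 25 to 50 mM, 103 and 115 at 25 mM, 146 and 134 at 5 to 50 mM, and 133 and 144 at 5 mM. All libraries kept at 25 mM were below those kept at 5 mM. PRDX4 was lower by -0.34 (adjusted p = 0.00818; 0.0605 without 25 mM replicate 1) and by -0.38 at 50 mM (adjusted p = 0.00495). PRDX5, found in mitochondria, peroxisomes and cytosol, had 244 and 244 RPKM at 25 to 50 mM, 249 and 261 at 25 mM, 299.8 and 309 at 5 to 50 mM, and 289 and 329 at 5 mM. PRDX5 was lower by -0.27 (adjusted p = 0.0115; 0.0801 without 25 mM replicate 1) and by -0.32 at 50 mM (adjusted p = 0.00539). With gene length fitted out the PRDX5 changes were -0.14 (adjusted p = 0.0686) and -0.15 (0.0504), and with GC content fitted out -0.16 (0.0332) and -0.14 (0.0512). Without 5 mM replicate 3 its change at 25 mM against 5 mM was -0.18 (adjusted p = 0.0234). PRDX2, a cytosolic peroxiredoxin, had 194 and 192 RPKM at 25 to 50 mM, 179 and 181 at 25 mM, 191 and 187 at 5 to 50 mM, and 198 and 199 at 5 mM. It was lower at 25 mM than at 5 mM by -0.14 (adjusted p = 0.0250), but this small change became -0.0069 once GC content was fitted out (adjusted p = 0.919) and -0.0011 with gene length fitted out (0.990). The call was also lost when 25 mM replicate 1 (0.112) or 3 (0.0879) was left out. The same held for 5 to 50 mM replicate 1 (0.0538) and 2 (0.0541), which enter through the shared spread. At 50 mM the change of PRDX2 was 0.032 (adjusted p = 0.549). It passed there as higher with GC content (0.19, adjusted p = 0.0124) or gene length (0.20, 0.0264) fitted out, 2 of 20 alternatives. PRDX1, the most abundant peroxiredoxin, ran from 1001 to 1174 RPKM over the 8 libraries and passed no test.

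NADPH is supplied by the pentose phosphate pathway, by malic enzyme and by isocitrate dehydrogenase. Of 8 genes, 2 were higher and 2 lower at 25 mM against 5 mM, and 1 was higher and 3 lower at 50 mM. TKT, the transketolase of the non-oxidative pentose phosphate branch (chr3:53224712-53256022), had 323 and 327 RPKM at 25 to 50 mM, 321 and 309 at 25 mM, 232 and 241 at 5 to 50 mM, and 231 and 257 at 5 mM. TKT was higher by 0.37 at 25 mM against 5 mM (SE 0.058, adjusted p = 0.00188) and by 0.45 at 50 mM (SE 0.058, adjusted p = 0.000666), with no overlap. PGD, which yields NADPH in the oxidative branch, had 123 and 128 RPKM at 25 to 50 mM, 134 and 135 at 25 mM, 144 and 146 at 5 to 50 mM, and 152 and 156 at 5 mM. PGD went the other way, lower by -0.20 (adjusted p = 0.00818; 0.0507 without 25 mM replicate 1) and by -0.21 at 50 mM (adjusted p = 0.00603; 0.0504 without 5 to 50 mM replicate 2). With GC content fitted out the PGD changes were -0.076 (adjusted p = 0.150) and -0.078 (0.136), and with gene length fitted out -0.11 (0.132) and -0.083 (0.237). The remaining members of the pathway passed no test. TALDO1 ran from 136 to 158 RPKM over the 8 libraries, RPE from 61.2 to 67.1 and RPIA from 21.9 to 28.1. PGLS, rich in GC, had 57.5 and 46.7 RPKM at 25 to 50 mM and 54.5 and 60.1 at 25 mM. It had 67.4 and 59.3 at 5 to 50 mM, and 51.3 and 75.3 at 5 mM. The PGLS changes were -0.12 at 25 mM against 5 mM (adjusted p = 0.628) and -0.28 at 50 mM (0.234). With GC content fitted out they were -0.072 and -0.044.

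ME1, the cytosolic malic enzyme (chr6:83210402-83431051), was the single gene of the 36 that passed in a rise to 50 mM. It had 37.3 and 38.4 RPKM at 25 to 50 mM, 38.9 and 42.5 at 25 mM, 50.0 and 48.2 at 5 to 50 mM, and 30.7 and 31.6 at 5 mM. The 5 to 50 mM libraries were the highest of the 8 and the 5 mM libraries the lowest, with the 4 kept at 25 mM between them. ME1 was 1.56-fold higher at 5 to 50 mM than at 5 mM (log2 change 0.64, SE 0.063, limma adjusted p = 0.0411). The log2 change at 25 to 50 mM against 25 mM was -0.10 (SE 0.065, adjusted p = 0.616). The difference between the rises was -0.74 (SE 0.086, adjusted p = 0.105). It passed with GC content fitted out (-0.73, adjusted p = 0.0200, of a range of 0.0200 to 0.985 over 19 alternatives). ME1 was thus higher at 25 mM than at 5 mM by 0.37 (adjusted p = 0.00229) and lower at 25 to 50 mM than at 5 to 50 mM by -0.37 (adjusted p = 0.00231), the only gene of the 36 called in opposite directions. The rise from 5 mM passed in 11 of 16 alternatives. Without 5 to 50 mM replicate 1 or 2 the adjusted p was 0.319 or 0.317, while the log2 change stayed between 0.61 and 0.68.

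IDH1, the cytosolic isocitrate dehydrogenase that also makes NADPH, had 61.2 and 66.3 RPKM at 25 to 50 mM, 69.2 and 70.7 at 25 mM, 91.7 and 93.0 at 5 to 50 mM, and 85.2 and 80.4 at 5 mM. All libraries kept at 25 mM were below those kept at 5 mM. IDH1 was lower by -0.24 at 25 mM (adjusted p = 0.0117; 0.0727 without 25 mM replicate 1) and by -0.53 at 50 mM (SE 0.056, adjusted p = 0.000257), and the difference between its rises, -0.29, did not pass (adjusted p = 0.556). With gene length fitted out its change at 25 mM against 5 mM was -0.14 and did not pass (adjusted p = 0.157).

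**Figure D3:**
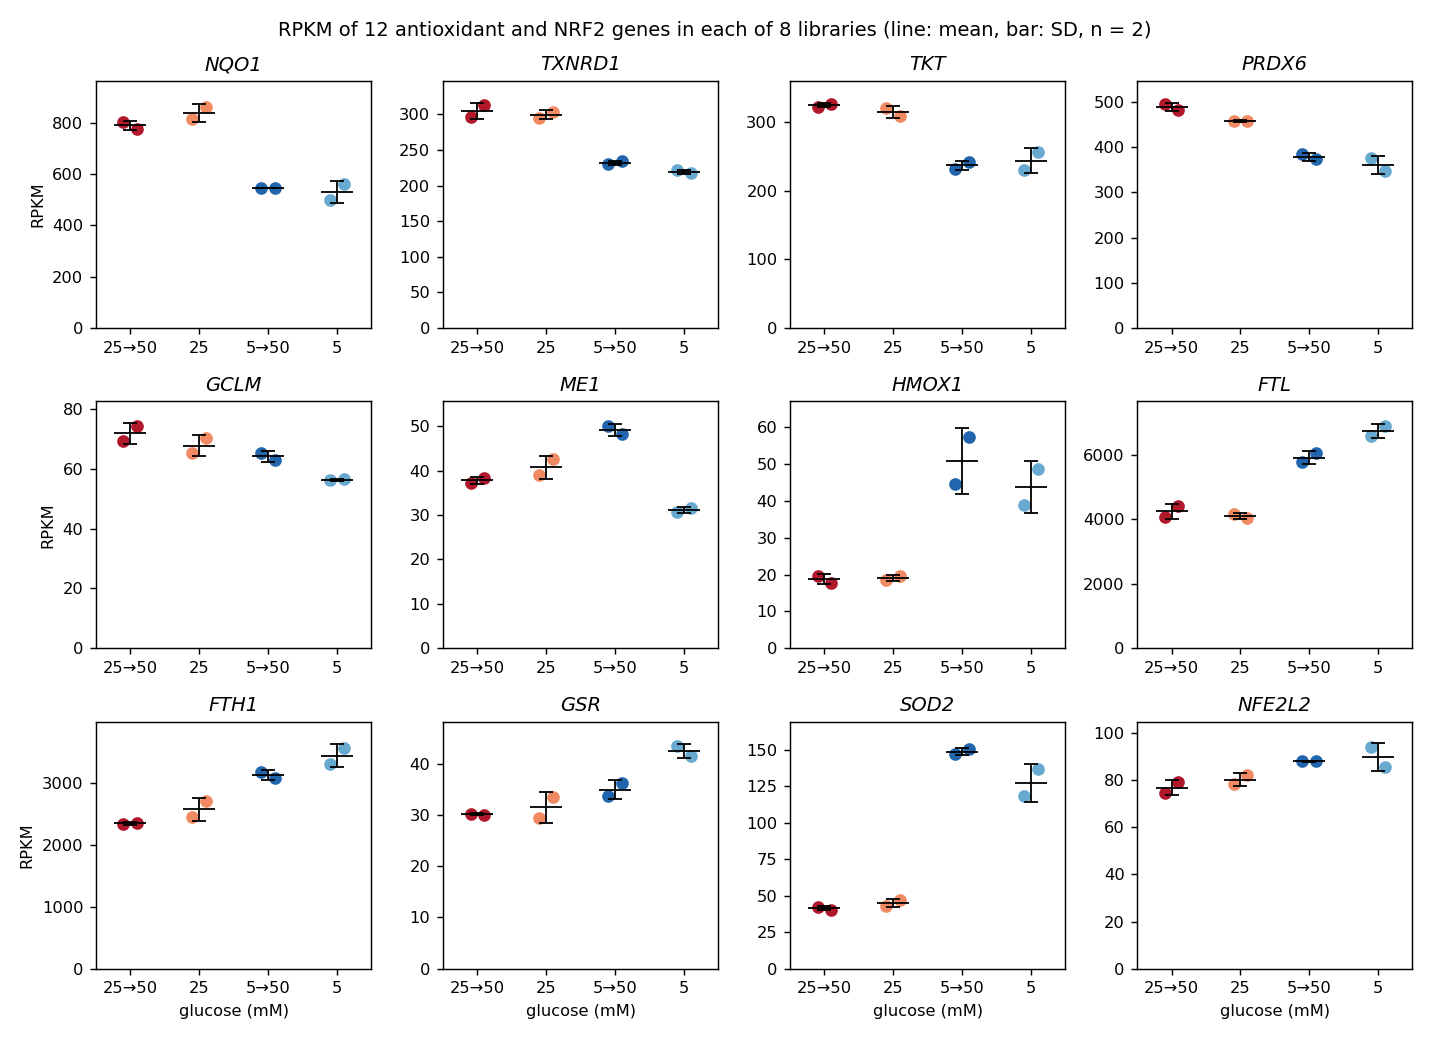
RPKM of 12 of the 36 genes (vertical axis, from 0) in the 4 glucose groups (horizontal axis, arrows mark the rise to 50 mM); points are libraries, lines the mean and bars the SD of n = 2. SOD2 and HMOX1 are at about the same level with and without the rise at 25 mM and far above it in the cultures kept at 5 mM, and ME1 is highest at 5 to 50 mM.

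Among the enzymes that remove superoxide and hydrogen peroxide, 2 of 4 were higher and 1 was lower at 25 mM against 5 mM, and the same counts held at 50 mM. SOD2, the manganese superoxide dismutase of mitochondria (chr6:159669069-159762281), had 42.4 and 40.3 RPKM at 25 to 50 mM, 43.0 and 47.1 at 25 mM, 147 and 150.3 at 5 to 50 mM, and 118 and 136 at 5 mM. Its highest library kept at 25 mM was at 47.1 RPKM and the lowest kept at 5 mM at 118 RPKM, the widest gap of the 36 genes by ratio. SOD2 was lower at 25 mM than at 5 mM by a log2 change of -1.48, a fold of 0.359 (SE 0.077, adjusted p = 1.1e-05). It was lower at 25 to 50 mM than at 5 to 50 mM by -1.82, a fold of 0.283 (SE 0.077, adjusted p = 3.43e-06). SOD1, the copper and zinc enzyme of the cytosol, had 491 and 474 RPKM at 25 to 50 mM, 512 and 545 at 25 mM, 414 and 408 at 5 to 50 mM, and 405 and 437 at 5 mM. It was higher by 0.33 (SE 0.053, adjusted p = 0.00219) and by 0.23 at 50 mM (adjusted p = 0.0103). The cytosolic and mitochondrial dismutases differed in opposite directions. The call of SOD1 at 50 mM was lost when replicate 2 of 25 to 50 mM (0.0592) or replicate 1 (0.0526) or 2 (0.0665) of 5 to 50 mM was left out.

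CAT, the peroxisomal catalase, had 23.1 and 23.8 RPKM at 25 to 50 mM, 25.6 and 24.6 at 25 mM, 17.5 and 15.7 at 5 to 50 mM, and 20.4 and 20.2 at 5 mM. CAT was higher by 0.29 at 25 mM against 5 mM (adjusted p = 0.0119; 0.077 without 25 mM replicate 1) and by 0.48 at 50 mM (SE 0.069, adjusted p = 0.00124), with no overlap of libraries. SOD3, the secreted dismutase, had 11.5 and 4.15 RPKM at 25 to 50 mM, 11.2 and 15.1 at 25 mM, 20.9 and 13.0 at 5 to 50 mM, and 13.9 and 34.9 at 5 mM. At 25 to 50 mM and at 5 mM 1 library of SOD3 was more than 2 times the other, and SOD3 passed none of the tests on all libraries. Its log2 changes were -0.72 (SE 0.51) at 25 mM against 5 mM and -1.13 (SE 0.51) at 50 mM. The SOD3 change at 25 mM against 5 mM was -1.35 without 5 mM replicate 1 and -0.085 without 5 mM replicate 3. At 50 mM it was -1.76 without 25 to 50 mM replicate 2, which passed (adjusted p = 0.0354), and -0.49 without 25 to 50 mM replicate 3.

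**Figure D4:**
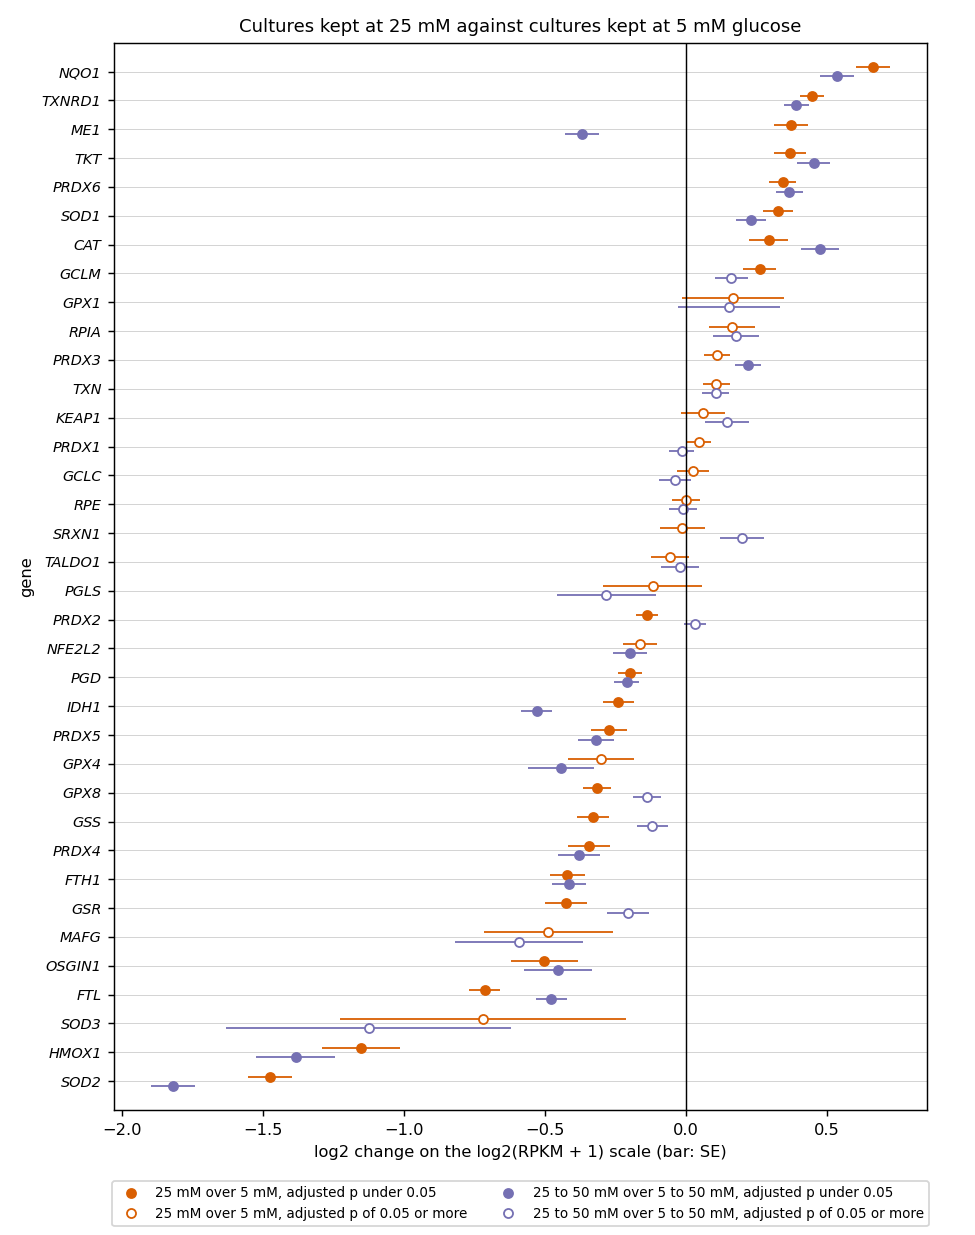
Log2 change of each of the 36 genes on the log2(RPKM + 1) scale (horizontal axis, bar: SE) at 25 mM over 5 mM and at 25 to 50 mM over 5 to 50 mM; filled points have an adjusted p under 0.05. SOD2 and HMOX1 lie furthest left and NQO1 furthest right in both, while the 2 points of ME1 fall on opposite sides of 0.

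The comparison at 25 mM and that at 50 mM share no library, though they share the estimate of spread. In the libraries kept at 25 mM, 9 genes were above and 14 below all 4 libraries kept at 5 mM, and 13 overlapped. Among all genes tested 21.9% were above, 26.5% below, and 48.3% did not overlap. A total of 15 genes passed both tests in the same direction, 6 higher (NQO1, TXNRD1, TKT, PRDX6, SOD1 and CAT) and 9 lower (SOD2, HMOX1, FTL, FTH1, OSGIN1, PRDX4, PRDX5, IDH1 and PGD). These are 71.4% of the 21 called at 25 mM and 78.9% of the 19 called at 50 mM. Among all genes the same shares were 83.1% of those called at 25 mM and 78.5% of those called at 50 mM. Of all those tested, 41.7% of the 36 genes and 32.5% of all genes passed both in the same direction. Another 8 passed in 1 comparison only, whose difference between the comparisons passed for none of them. The remaining 12 passed in neither: GCLC, SRXN1, TXN, PRDX1, GPX1, SOD3, KEAP1, MAFG, PGLS, TALDO1, RPIA and RPE. The sign was the same in both comparisons for 30 of the 36. Across the 36 genes the log2 changes had a Pearson r of 0.922, as a description only, since genes are not independent replicates.

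How many genes were called higher depended on the scaling. At 25 mM against 5 mM, 43.5% of the calls among all genes were higher with the deposited RPKM, 56.1% after quantile normalization, 60.1% with gene length fitted out of each library and 62.9% with GC content fitted out. The 36 genes gave 9 higher and 12 lower after quantile normalization, 11 and 9 with gene length fitted out, and 13 and 12 with GC content fitted out. At 50 mM the calls among all genes were 43.8% higher with the deposited RPKM, 54.1% after median centring, 60.1% after quantile normalization, and 64.2% and 64.3% with gene length and GC content fitted out. The 36 genes then gave 11 higher and 11 lower after median centring, 9 and 9 after quantile normalization, 13 and 9 with gene length fitted out, and 14 and 10 with GC content fitted out. The median log2 change of all genes in that comparison was 0.093 with gene length fitted out, against -0.023 with the deposited RPKM. For the 36 genes it was 0.046 with gene length and 0.027 with GC content fitted out, against -0.079. At 25 mM against 5 mM the median of the 36 genes was 0.028 and 0.035 with these fitted out, against -0.087. That of all genes was then 0.080 and 0.081. Of the 21 calls at 25 mM, 13 held in all 20 alternatives (FTH1, FTL, GPX8, GSR, GSS, HMOX1, ME1, NQO1, PRDX6, SOD1, SOD2, TKT and TXNRD1). Of the 19 at 50 mM, 11 did (CAT, FTH1, HMOX1, IDH1, ME1, NQO1, PRDX4, PRDX6, SOD2, TKT and TXNRD1). Some calls that held moved by over 1.5 times. With gene length fitted out, the change at 25 mM against 5 mM was -0.28 for FTH1, -0.18 for GPX8, -0.23 for PRDX4 and 0.49 for SOD1. That at 50 mM was -0.24 for FTH1, -0.29 for GPX4, 0.38 for PRDX3, -0.23 for PRDX4 and 0.42 for SOD1. With GC content fitted out, it was -0.20 for GSS at 25 mM against 5 mM, and at 50 mM -0.24 for GPX4, -0.13 for NFE2L2 and -0.24 for OSGIN1. After quantile normalization it was -0.28 for FTH1 at 25 mM against 5 mM. Other genes passed under a scaling although they did not with the deposited RPKM. With GC content fitted out, GPX1, PRDX1, PRDX3, RPIA and TXN passed as higher and GPX4 as lower at 25 mM against 5 mM. At 50 mM these were GCLM, GPX1, KEAP1, PRDX2, RPIA, SRXN1 and TXN, all higher. KEAP1 was then higher at 25 to 50 mM than at 5 to 50 mM by 0.34 (adjusted p = 0.00272) and SRXN1 by 0.33 (adjusted p = 0.00436). With gene length fitted out, PRDX3, RPIA and TXN passed as higher at 25 mM against 5 mM. GCLM, KEAP1, PRDX2, RPIA, SRXN1 and TXN did so at 50 mM. Median centring made GCLM, RPIA, SRXN1 and TXN pass as higher at 50 mM. Quantile normalization did this for GCLM and SRXN1 at 50 mM and for PRDX3 at 25 mM against 5 mM. Cytosolic ribosomal protein genes, which are short and abundant, moved with this contrast: 34 of 75 were higher and 2 lower at 25 mM (median log2 change 0.15), and 47 higher and 2 lower at 50 mM (median 0.20). Of the 36 genes, 23 have a counted length under 1000 bases; the part of length or RNA quality in their changes was not tested otherwise.

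Changes in the 24 h rise to 50 mM were mostly small, as they were among all genes. From 25 mM, 35 of the 36 genes (97.2%) had an absolute log2 change under 0.3 (a fold of 1.23), against 94.1% of all genes, and from 5 mM, 34 of the 36 (94.4%) did, against 93.9%. The largest positive changes from 25 mM were those of SRXN1 at 0.21 (SE 0.070) and OSGIN1 at 0.19 (SE 0.12). The largest negative ones were those of SOD3 at -0.81 (SE 0.39) and GPX1 at -0.20 (SE 0.12). Leaving out a library of a rise left 1 in its group, so that the spread came from the other group alone. For such fits only log2 changes are given here. Without 25 to 50 mM replicate 2 the changes from 25 mM were -1.44 for SOD3, -0.40 for GPX1 and -0.27 for GPX4, all rich in GC. From 5 mM, the next positive change after ME1 was SOD2 at 0.23 (SE 0.080, adjusted p = 0.427). The largest negative ones were SOD3 at -0.40 (SE 0.44) and CAT at -0.28 (SE 0.084, adjusted p = 0.350). At an unadjusted p under 0.05 there were 5 genes above and 4 below, where 5.16% and 5.36% of all genes were. Without 5 mM replicate 1 the change from 5 mM was 0.62 for ME1 and 0.21 for PRDX1. It was then -0.19 for FTH1, -0.22 for FTL, -0.47 for GPX1 and -0.25 for GPX4. Without 5 mM replicate 3 the change was 0.66 for ME1, 0.33 for SOD2 and 0.52 for MAFG. No gene passed in the difference between the rises, where 0.0251% of all genes did (0.00837% positive, 0.0167% negative). The largest after ME1 were SOD3 at -0.41 on the negative side and FTL at 0.23 and GSR at 0.22 on the positive side. At an unadjusted p under 0.05 that comparison held 4 positive and 3 negative genes, where 2.29% and 3.74% of all genes were, and the signs of the rises were the same in 21 of the 36.

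**Figure D5:**
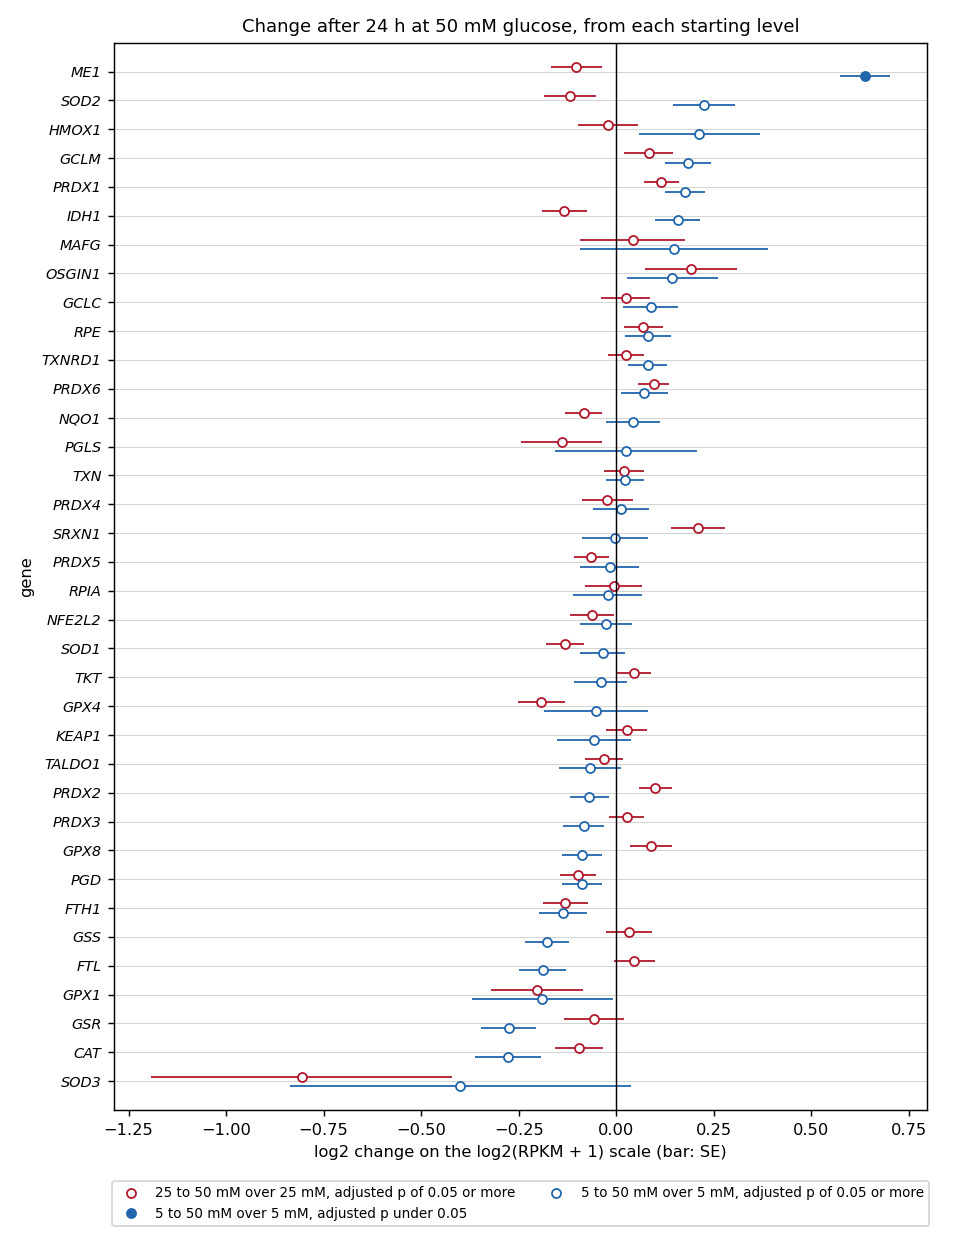
Log2 change of each of the 36 genes on the log2(RPKM + 1) scale (horizontal axis, bar: SE) at 25 to 50 mM over 25 mM and at 5 to 50 mM over 5 mM, ordered by the change from 5 mM; the filled point has an adjusted p under 0.05. Only ME1 from 5 mM is filled, at 0.64, and the points of 35 and 34 genes lie within 0.3 of 0.

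A further 86 genes of the pathway were listed by role and not by how they moved, of which 71 were tested. At 25 mM against 5 mM 8 were higher and 24 lower, 45.1% of those tested against 39.1% of all genes (17% higher, 22.1% lower), with a median log2 change of -0.10. At 25 to 50 mM against 5 to 50 mM 7 were higher and 25 lower, 45.1% against 41.4% of all genes (18.1% higher, 23.3% lower), also with a median of -0.10. From 25 mM none passed, and from 5 mM AKR1C1 passed, an aldo-keto reductase with closely similar paralogs, between which the assignment of reads is uncertain. Among NRF2 regulators, SQSTM1, the autophagy receptor p62 that binds KEAP1, averaged 155 ± 1.10 RPKM at 25 to 50 mM, 159 ± 5.16 at 25 mM, 325 ± 12.1 at 5 to 50 mM and 352 ± 26.4 at 5 mM (SD, n = 2 each). It was lower at 25 mM than at 5 mM by -1.14 (adjusted p = 1.12e-05). At 25 mM against 5 mM the list of NRF2 regulators held 2 lower of 10 tested, that of thioredoxin genes 3 lower of 7, that of NADPH genes 3 higher and 3 lower of 12, and that of detoxification and iron genes 2 higher and 4 lower of 15. Of 8 NADPH oxidase genes 1 was tested, and it did not pass. In the cystine and glutathione list, 3 of 26 were higher and 12 lower. Each of these counts stands beside the same 17% and 22.1% of all genes, and none was tested against them. GSTO1, a glutathione transferase, averaged 119.7 ± 1.62 RPKM at 25 to 50 mM, 121 ± 4.46 at 25 mM, 257 ± 1.64 at 5 to 50 mM and 288 ± 3.30 at 5 mM (SD, n = 2 each). GLRX, the cytosolic glutaredoxin, averaged 61.7 ± 0.888 RPKM at 25 to 50 mM, 64.0 ± 3.53 at 25 mM, 155 ± 9.53 at 5 to 50 mM and 146 ± 5.14 at 5 mM (SD, n = 2 each). Both were lower at 25 mM, by -1.24 (adjusted p = 1.71e-06) and -1.18 (adjusted p = 1.12e-05), whereas GPX7, a peroxidase of the endoplasmic reticulum like GPX8, was higher by 0.94 (adjusted p = 0.00043). TXNIP, the thioredoxin-binding protein, averaged 66.6 ± 3.44 RPKM at 25 to 50 mM, 77.1 ± 4.56 at 25 mM, 148 ± 2.86 at 5 to 50 mM and 141 ± 14.6 at 5 mM (SD, n = 2 each), and was lower at 25 mM than at 5 mM by -0.86 (adjusted p = 0.00014). These examples were picked after their values were seen.

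Some levels carry limits of annotation. Named pseudogenes in GENCODE 29 number 7 for TXN, 6 for RPE, 4 each for PRDX2 and PRDX3, 3 for SOD1 and 2 for GPX1. Exons of another gene lie over the coding sequence on the opposite strand for GCLC, PGLS, FTH1, PRDX1, SOD2, NFE2L2 and MAFG, and on the same strand for SRXN1, OSGIN1 and NFE2L2. Whether counting used strand is not given in the sources used here, so reads of these pairs cannot be told apart.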

How the data were processed

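Total RNA of AC16 cells was extracted with TRIzol and sequenced on Illumina libraries, per the labels' protocols. STAR and the hg38 build are named in the submitters' processing notes; the counting tool, annotation and strand setting are not given in the sources used here. The authors deposited RPKM values in 2 tables, 1 for each starting glucose, with 1 column per library, and these were joined on gene number (19479 genes). RPKM steps gave whole reads within 0.01 for 100% of 16297 genes above 0, and thereby the library totals. The gene lengths found were multiples of 3 for 83.4% of genes, so RPKM is per coding length for most.

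Values were analysed as log2(RPKM + 1). A gene had to reach 1 RPKM in 2 or more of the libraries in a fit. Tests were two-sided and used limma (version 3.58.1, under R 4.3.3), whose variance estimates followed a trend on mean level; p-values were adjusted by Benjamini-Hochberg over every gene in the fit, with a threshold of 0.05. Each rise to 50 mM was fitted on its own 4 libraries, and the other 3 comparisons on all 8 with 1 shared spread. A fold change on this scale understates that of low genes. The script was tested on simulated data.

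The 36 genes and all lists were chosen with earlier results of these data known. Values per library are given for the regulators, the classical targets, every gene that passed a test and the 2 largest changes in each direction. The alternatives were other pseudocounts, filters, scalings and variance models, a threshold of 0.1, a replicate block, gene length or GC content fitted out by a spline, other sets of fitted libraries, and leaving out each library. Coordinates are those of RefSeq GRCh38.p14.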

Additional observations from a re-analysis of the deposited data

How the results depend on the processing

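In the rise from 25 mM, 0 to 3 of the 36 genes passed when each library was left out in turn, with 3 without 25 to 50 mM replicate 2 and 0 otherwise. In the rise from 5 mM, the 1 call (ME1) became 0 without a filter on low values (adjusted p of ME1 0.114) and 0 without a mean-variance trend (0.0876), and 0 to 6 genes passed when each library was left out, with 0 without either 5 to 50 mM library. The difference between the rises gave 1 call with GC content fitted out. At 25 mM against 5 mM, 14 to 24 genes passed when each library was left out, and at 50 mM 14 to 23. With the replicate number as a block over all 8 libraries, which leaves 2 residual degrees of freedom, 0 genes passed in the rise from 5 mM (ME1 at 0.108), 0 in that from 25 mM, 20 at 25 mM against 5 mM and 15 at 50 mM. The numbers are not shown to pair libraries: each rise shares 1 number between its groups, and replicate 1 minus replicate 3 correlated between 25 mM and 5 mM at r = 0.258 over 11941 genes. SOD3 changed sign: its log2 change from 5 mM was -0.40 with all libraries and ran from -1.04 without 5 mM replicate 1 to 0.24 without 5 mM replicate 3. The difference between its rises was -0.41 with all libraries and ran from -1.04 without 25 to 50 mM replicate 2 to 0.23 without 25 to 50 mM replicate 3 and 0.23 without 5 mM replicate 1. Of 1003 recomputed values of 52 single-gene results, 937 kept direction and side of the threshold, 59 lost the call, 4 gained one and 3 reversed direction. The cause was not tested. These 52 results do not cover every gene and comparison, and calls that other genes gained under a scaling are given above. The fewest reads of a gene in 1 library were 75 for SOD3, 101 for MAFG and 146 for OSGIN1.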
